A study of Mus musculus with 4 samples.

Results

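Snai1, Snai2, Zeb1, Zeb2, Twist1 and Twist2 encode the classical transcription factors of the epithelial-mesenchymal transition (EMT). Their chromatin accessibility was measured in single nuclei of the mouse mammary gland, before birth and in the adult. They are 6 of the 21887 genes over which reads were counted, and they were chosen by name. In GRCm38 they span chr2:167538195-167542814 (Snai1), chr16:14705852-14709395 (Snai2), chr18:5591327-5775468 (Zeb1), chr2:44983512-45117442 (Zeb2), chr12:33957671-33959831 (Twist1) and chr1:91801461-91848034 (Twist2). Nuclei came from wild-type CD1 mice, without a transgene or a treatment in the labels, and from cells sorted as EpCAM+ and Lin-, a gate that takes epithelial cells. The fetal group had 2 libraries at embryonic day 18 and the adult group had 2 libraries at 8 weeks of age, called biological replicates in the labels. How many animals a library pooled is not given in the sources used here. Single-nucleus ATAC-seq reads where the Tn5 transposase can cut, so the values below are accessibility and not RNA or protein. Each fetal library used 16 wells for the transposase reaction and each adult library 32, which cannot be told apart from stage.

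Snai1 (Snail) and Snai2 (Slug) are zinc-finger repressors. Zeb1 and Zeb2 carry zinc fingers at either end of the protein, with a homeodomain between them. Twist1 and Twist2 are basic helix-loop-helix factors that bind DNA as dimers with E proteins such as Tcf3, Tcf4 and Tcf12. All bind E-box DNA, and the Snai and Zeb proteins are known to repress Cdh1 (E-cadherin) and other junction genes while cells take on mesenchymal traits. In the mammary gland Snai2 is known as a factor of basal cells, and Twist1 is known from mesenchyme. The miR-200 family and the Zeb genes repress each other. EMT factors thus work in a network with epithelial guardians such as Grhl2, Ovol1 and Esrp1 on the opposing side.

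The libraries held 882 and 1695 fetal nuclei and 2465 and 2804 adult nuclei, 7846 in all, with 6028168 and 15801908 fetal and 13588107 and 19304830 adult reads in nuclei. No barcode was shared between libraries. The 2 ends of a fragment are listed as separate reads, so reads outnumber molecules. A gene was counted over its span plus 2 kb on either side, and a level is given as CPM (reads divided by the total of the library or class and scaled as usual) per kb of that window. The depositors had sorted the nuclei into 14 numbered classes, which are called basal-like and so on below only where marker genes bear the name out.

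The E-box that the Snai and Zeb proteins prefer reads CACCTG or, on the other strand, CAGGTG, and it is a form of the general E-box CANNTG. Both spellings were searched in RefSeq promoters (GRCm38.p6, 250 bases before to 50 after a gene's start), in which position 0 is the start and a match is placed by its leading base. CACCTG or CAGGTG occurred in 6640 of 32851 promoters (20.2%), and CANNTG in 72.3%. Of the members, Snai1, Zeb2, Twist1 and Twist2 had entries. They are shown because the accessible promoter regions described below lie on them, with the match in capitals: Snai1 (chr2:167537945-167538244, plus strand), Twist1 (chr12:33957421-33957720, plus strand) and Twist2 (chr1:91801211-91801510, plus strand).
Snai1: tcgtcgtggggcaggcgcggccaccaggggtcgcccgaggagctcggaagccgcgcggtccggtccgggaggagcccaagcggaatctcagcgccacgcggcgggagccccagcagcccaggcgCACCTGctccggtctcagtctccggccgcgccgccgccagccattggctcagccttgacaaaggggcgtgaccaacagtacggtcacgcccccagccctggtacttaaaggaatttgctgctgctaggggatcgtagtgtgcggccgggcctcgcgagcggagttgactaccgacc
Twist1: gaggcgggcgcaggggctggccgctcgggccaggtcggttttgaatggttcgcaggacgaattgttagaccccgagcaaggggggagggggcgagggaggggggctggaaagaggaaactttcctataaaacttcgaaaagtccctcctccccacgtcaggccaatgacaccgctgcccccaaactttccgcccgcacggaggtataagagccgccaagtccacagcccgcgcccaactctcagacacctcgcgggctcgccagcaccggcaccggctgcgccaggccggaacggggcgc
Twist2: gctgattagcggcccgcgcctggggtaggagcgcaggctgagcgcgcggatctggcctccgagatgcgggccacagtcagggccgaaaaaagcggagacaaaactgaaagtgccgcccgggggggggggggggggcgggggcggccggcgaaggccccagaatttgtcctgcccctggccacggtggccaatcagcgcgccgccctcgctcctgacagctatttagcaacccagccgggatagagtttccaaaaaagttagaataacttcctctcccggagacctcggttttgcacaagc
The Snai1 window held 1 match, CACCTG at -126. The Twist1 and Twist2 windows and the 4 Zeb2 entries held no CANNTG of any kind, which says only that these letters are not in these windows. Of 18 epithelial genes listed as targets or guardians, 11 had promoter entries, and 9 of these held CACCTG or CAGGTG in at least 1 entry (11 of 15 entries, 73.3%). The 2 entries of Crb3 overlap, as do those of Ocln, so that shared sites are counted in both. Epcam, the adhesion molecule used for the sort (chr17:87635729-87636028, plus strand, matches at -187 and -19), and Crb3, an apical polarity protein (chr17:57061951-57062250, plus strand, the same 4 matches in its 2 overlapping entries), are shown as targets whose accessibility is given below. This search was added after seeing the data, and a match is a description, not a bound site.
Epcam: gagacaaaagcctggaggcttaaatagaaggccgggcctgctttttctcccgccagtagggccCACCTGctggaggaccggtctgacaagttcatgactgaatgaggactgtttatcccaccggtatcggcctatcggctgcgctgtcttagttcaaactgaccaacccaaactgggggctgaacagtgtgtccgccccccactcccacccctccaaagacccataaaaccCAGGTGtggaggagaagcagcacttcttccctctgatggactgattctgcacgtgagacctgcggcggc
Crb3: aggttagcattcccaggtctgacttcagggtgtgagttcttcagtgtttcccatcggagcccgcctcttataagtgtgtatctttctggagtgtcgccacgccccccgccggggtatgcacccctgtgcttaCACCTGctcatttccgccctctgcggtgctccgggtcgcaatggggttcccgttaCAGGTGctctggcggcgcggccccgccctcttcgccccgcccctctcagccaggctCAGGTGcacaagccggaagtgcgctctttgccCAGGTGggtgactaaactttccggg

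Marker genes placed most classes. A marker was called raised where its log2(CPM + 2) lay at least 0.5 above the mean of the other classes. Adult classes 1 and 8 each had 10 of 10 basal markers raised, and fetal class 4 had 7 of 10. Luminal progenitor markers were raised 7 of 9 in adult class 3, 8 of 9 in adult class 7 and 6 of 9 in fetal class 9. Mature luminal markers were raised 9 of 9 in adult class 2 and 6 of 9 in adult class 11. Fetal class 5 had 5 of 9 luminal progenitor markers raised, and adult class 10 had 7 of 9, with 5 of 9 mature luminal ones. Classes 12 and 13 (fetal) and 14 (adult) are called by number.

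Class 6 was the one class with many nuclei of both stages, 23 and 33 fetal and 82 and 75 adult, and its markers went against the sort. All 8 stromal markers were raised, with summed levels of 807 to 863 CPM (fetal) and 880 to 1030 CPM (adult), against 116 to 322 CPM in the other classes. Pericyte (4 of 5) and adipocyte (4 of 4) markers were raised too. Epcam stood at 0 and 0.893 CPM per kb in the fetal and 0.494 and 0.903 in the adult class 6 sums, against 4.74 to 5.87 in the remaining nuclei. Krt5, a basal keratin, had no read in any of the 4 sums. No read in the 1496281 reads of class 6 allows up to 2.00 CPM, from counting error only, and more over fragments, whose 2 ends are separate reads. Krt5 read 20.6 to 65.0 CPM in the basal-like sums but 0.696 and 1.47 CPM in adult classes 2 and 11, so its 0 does not set class 6 apart from luminal nuclei. Class 6 is called stromal-like below, and the members' whole-library tests of gene spans are given with and without it.

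**Figure D1:**
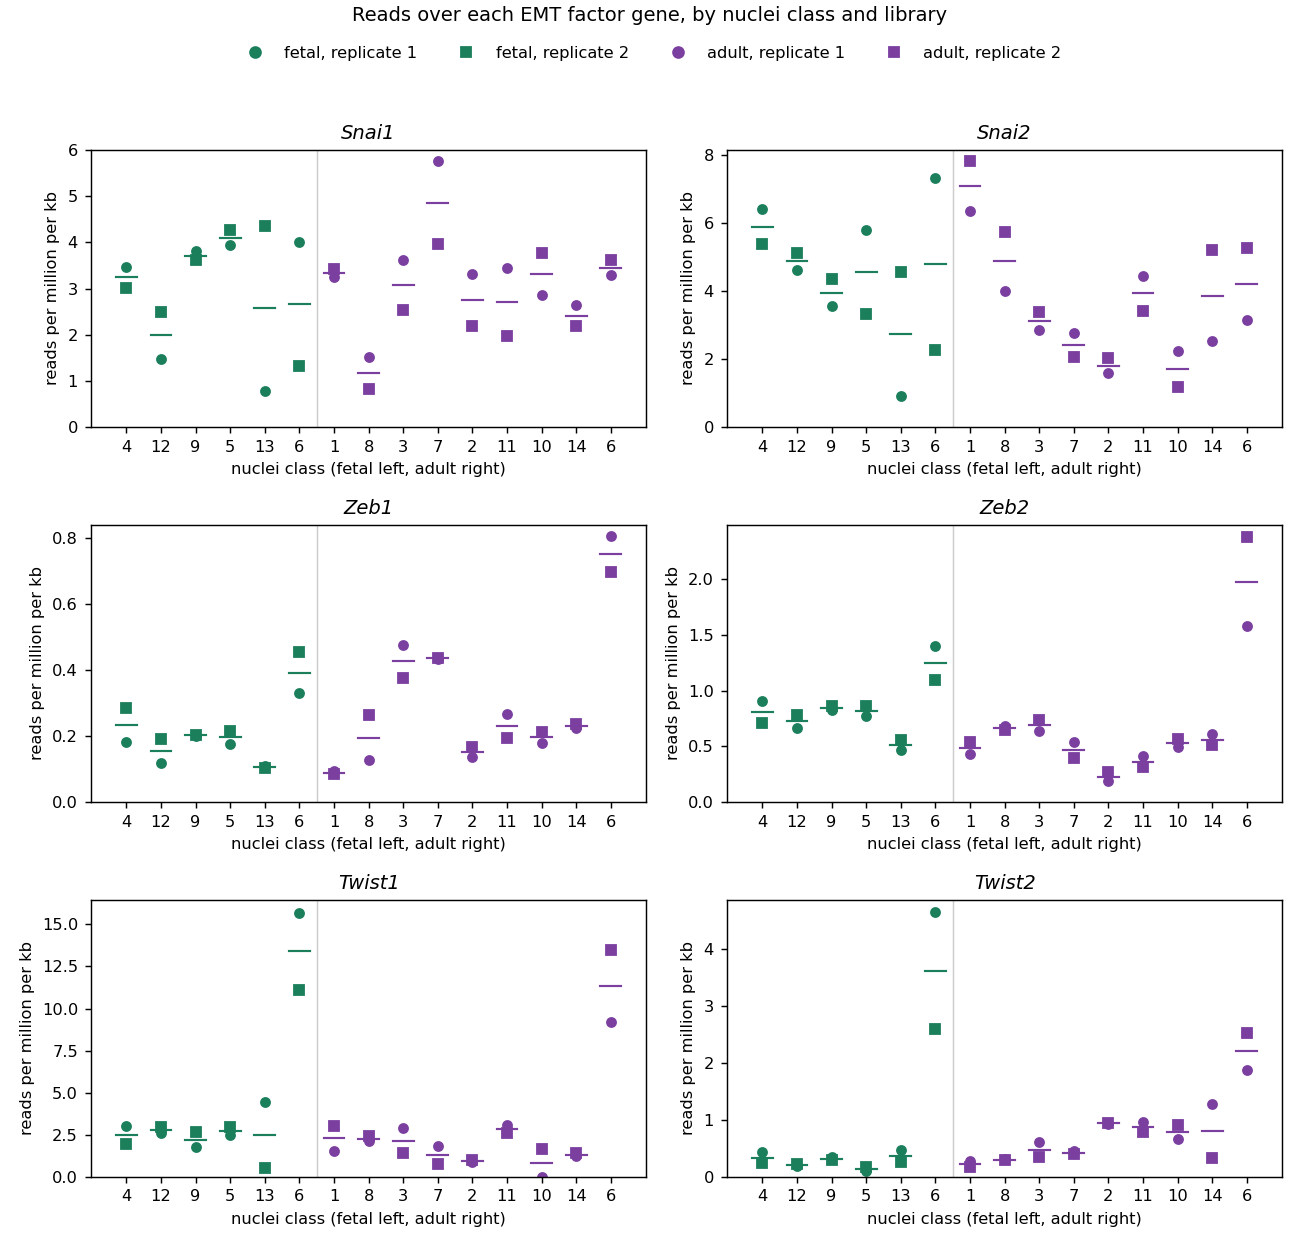
Accessibility of the 6 genes in CPM per kb of counted window, by deposited class; each point is 1 library, for classes with at least 20 nuclei in it. Twist1 and Twist2 are highest in class 6, Snai2 is highest in basal-like classes 1 and 4, and Zeb1 is high in class 6 and in adult classes 3 and 7.

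Classes were formed on these same nuclei, so differences between classes of a stage are described here and not tested. A gene is said to be higher or lower between classes where the 2 libraries of each do not overlap and the log2 ratio of mean CPM + 2 is at least 0.5 in size. Of 72 such ratios for the members, 33 passed, and the share of all genes that passed is given beside each comparison. Per kb, Snai1, Snai2 and Twist1 were read well above the median gene in whole libraries (0.647 to 0.675 CPM per kb), Zeb1 was below it, and Zeb2 was above it in the fetal and below it in the adult libraries. A level per kb averages over the whole window, which is 6.16 kb for Twist1 and 188 kb for Zeb1.

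Snai2 was the basal member. Adult class 1 had 6.37 and 7.81 CPM per kb, fetal class 4 had 6.41 and 5.37, and adult class 8 had 4.00 and 5.75. These 3 basal-like classes overlapped with their neighbours in the order, among them fetal classes 12 (4.63 and 5.11) and 5 (5.81 and 3.31). Adult mature luminal-like class 11 (4.44 and 3.42) overlapped class 8. The lowest class means were those of adult mature luminal-like class 2 (1.59 and 2.03) and class 10 (2.24 and 1.17). Fetal class 13 had a higher mean but ranged from 0.902 to 4.55. Adult basal-like nuclei exceeded luminal progenitor-like nuclei by a log2 ratio of 1.06 (12.3% of 16982 genes were higher and 18.9% lower by this rule) and mature luminal-like nuclei by 1.24 (14.8% of 17442 higher, 23.6% lower). Fetal class 4 exceeded class 9 by 0.55, or by 0.44 without the flanks, which is under the rule's size. With the flanks, Snai2 was the only member past the rule (7.35% of 17096 higher, 15.0% lower). In class 6 Snai2 rested on 6 to 23 reads a library, and its levels of 7.32 and 2.27 (fetal) and 3.14 and 5.27 (adult) overlapped those of other nuclei.

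Snai1 did not follow its paralog. It was highest in adult luminal progenitor-like class 7 (5.76 and 3.96 CPM per kb) and fetal class 5 (3.94 and 4.26), which overlapped, and lowest in adult basal-like class 8 (1.52 and 0.829). The adult basal-like sum, 2.44 and 2.15, lay below the luminal progenitor-like one, 5.02 and 3.27, by a log2 ratio of -0.79. Adult replicate 1 had the higher Snai1 level in classes 2, 3, 7, 8 and 11, and the lower one in class 1. Within cell types, class 8 was below class 1 by -1.34 (8.53% of 15110 genes higher, 24.5% lower) and class 3 was below class 7 by -0.62 (12.2% of 16177 higher, 14.2% lower). The share of reads in promoter regions moved with these pairs: 18.9% and 17.5% in class 8 against 25.8% and 25.5% in class 1, and 21.4% and 20.9% in class 3 against 27.7% and 26.4% in class 7. Class 11 had a lower share than class 2 (21.1% and 18.6% against 25.7% and 23.3%) with a Snai1 ratio of -0.02. Class 12 had a higher share than class 4 (24.4% and 21.9% against 20.8% and 19.2%) with a ratio of -0.65. Class 5 (26.2% and 24.2%) had a higher share than class 12 with a ratio of 0.97. The part of this share in the Snai1 differences was not tested.

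Zeb1 was highest, outside class 6, in adult luminal progenitor-like nuclei. Adult class 1 had 0.0934 and 0.0835 CPM per kb, the lowest of all classes, while luminal progenitor-like classes 3 (0.475 and 0.377) and 7 (0.434 and 0.438) lay above the other epithelial classes. The adult basal-like sum was lower than the progenitor-like sum by a log2 ratio of -1.54. The progenitor-like sum was also above the mature luminal-like one by 1.27 (11.9% of 17629 genes higher, 13.3% lower). Zeb1 was higher in class 8 than in class 1 by 1.05, and class 8 had the lower promoter share. The adult basal-like (0.109 and 0.172) and mature luminal-like sums (0.166 and 0.178) overlapped. In the fetus class 4 (0.181 and 0.286) and class 9 (0.201 and 0.204) overlapped, class 12 had 0.118 and 0.190, and class 13 was the lowest at 0.109 and 0.104.

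Zeb2 was shared by basal-like and progenitor-like nuclei and low in mature luminal-like ones. Adult sums were 0.552 and 0.590 CPM per kb (basal-like), 0.572 and 0.563 (progenitor-like) and 0.239 and 0.284 (mature luminal-like). Both earlier sums were above the mature luminal-like one, by log2 ratios of 1.09 and 1.08, and they did not differ from each other by the rule (0.01). Over a 5-prime window, 1 kb on either side of the gene's start, these ratios were 0.25 and 0.00. The Zeb2 promoter region at that end read only 1.91 and 2.18 CPM in the adult libraries, about the 2 CPM added before a ratio is taken. Ratios over this window are thus drawn towards 0, and they cannot show whether the difference was absent there. The fetal classes 4, 5 and 9 were close together, between 0.709 and 0.911, and overlapped.

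Twist1 and Twist2 stood highest in class 6, where summed stromal markers were high and Epcam was lower than in the other nuclei. Twist1 read 15.7 and 11.1 CPM per kb in fetal and 9.22 and 13.5 in adult class 6, and no other class exceeded 4.42 in a library. Against all other nuclei of its stage, class 6 was higher in Twist1 by log2 ratios of 2.31 (fetal) and 2.55 (adult), and in Twist2 by 3.51 and 1.73. Zeb2 was higher there by 0.63 and 2.17 and Zeb1 by 0.95 and 1.53, so that 4 of 6 members passed in each stage. Among all genes 15.6% of 17724 were higher and 27.6% lower in fetal class 6, and 17.5% of 18086 were higher and 25.7% lower in adult class 6.

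Among the epithelial classes Twist2 was a mature luminal gene by its span. Adult classes 2 (0.928 and 0.944 CPM per kb) and 11 (0.963 and 0.792) had the highest means after class 6, and the basal-like sum (0.294 and 0.233) was lower than the mature luminal-like sum by a log2 ratio of -1.65. The progenitor-like sum was lower than it as well, by -0.99. The 5-prime window gave other values. Over that window the basal-like nuclei were above the mature luminal-like ones by 0.76 and above the progenitor-like ones by 0.85, against -1.65 and -0.66 over the span. The progenitor-like ratio to the mature luminal-like sum was -0.09 there. The fetal class 5 was below class 9 in Twist2 by -1.0 over the span (4.87% of 16981 genes higher, 4.8% lower) and by -0.23 over the 5-prime window. The Twist2 promoter region had only 10 and 40 fetal and 46 and 54 adult reads over all nuclei, class 6 among them. Ratios of Twist2 over the 5-prime window thus rest on few reads, with 2 CPM added to each mean, and do not settle a direction there.

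The remaining ratios past the rule were these. Class 8 was below class 1 in Snai2 by -0.52, and class 3 was above class 7 in Zeb2 by 0.55. Adult basal-like nuclei were above mature luminal-like ones in Twist1 by 0.50, a ratio that was 0.21 without the flanks and 0.15 over the 5-prime window. Class 12 was below class 4 in Snai1 (-0.65) and Twist2 (-0.64), with 11.4% of 16011 genes higher and 6.23% lower. Class 5 was above class 12 in Snai1 by 0.97 (12.4% of 15901 higher, 6.15% lower). Class 11 was above class 2 in Snai2 (1.02), Twist1 (1.34), Zeb2 (0.65) and Zeb1 (0.58), with 9.78% of 16855 genes higher and 10.9% lower. In class 11 the share of reads in promoter regions was 21.1% and 18.6%, and in class 2 it was 25.7% and 23.3%. All 4 members were thus higher where the promoter share was lower, and its part was not tested.

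The comparison of fetal with adult libraries asks how accessibility at these loci differs between the stages. Over whole libraries Zeb2 was more accessible and Twist2 less accessible in the fetal libraries. The Zeb2 level was 0.808 and 0.812 CPM per kb before birth and 0.455 and 0.50 in adults, with no overlap. It was 1.68-fold higher in the fetal libraries (log2 0.75, SE 0.12, edgeR quasi-likelihood test, adjusted p = 0.00033), where the SE is the log2 value over the root of the F statistic. The Twist2 level was 0.410 and 0.309 before birth and 0.726 and 0.640 in adults, again without overlap. It was 1.96-fold lower in the fetal libraries (log2 -0.97, SE 0.16, adjusted p = 0.00057). These were 2 of 6 members called, against 22.4% of the 18808 genes tested (11.0% higher, 11.4% lower).

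The other 4 members missed the threshold in whole libraries. Snai2 read 4.53 and 4.42 CPM per kb before birth and 2.85 and 3.64 in adults, a log2 difference of 0.44 (SE 0.16, adjusted p = 0.057). Zeb1 read 0.182 and 0.223 against 0.277 and 0.258, a log2 difference of -0.39 (SE 0.14, adjusted p = 0.053). Neither pair of groups overlapped, and both calls were gained under some alternatives. Snai2 passed at an adjusted p of 0.048 when class 6 was left out and 0.037 over nuclei with at least 4000 reads, and Zeb1 passed at 0.048 without the filter on reads. Without adult replicate 2 it passed at 0.003, and Zeb1 at 0.034. Twist1 (2.69 and 2.69 against 1.88 and 2.06, log2 0.44, SE 0.19) and Snai1 (3.37 and 3.46 against 3.77 and 2.57, log2 0.11, SE 0.17) had adjusted p of 0.11 and 0.69.

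Leaving out class 6, which made up 56 of 2577 fetal and 157 of 5269 adult nuclei, widened both differences. Zeb2 then differed by log2 0.88 (adjusted p = 4.1e-05) and Twist2 by -1.20 (adjusted p = 5.7e-05). Over the 5-prime window both calls ended: Zeb2 was at log2 0.87 (SE 0.34, adjusted p = 0.051), no smaller than over the span, and Twist2 at -0.57 (SE 0.40, adjusted p = 0.34). Without class 6, Zeb1 (-0.34, adjusted p = 0.088), Twist1 (0.53, 0.070) and Snai1 (0.12, 0.66) stayed uncalled. The whole libraries also differ in which classes they hold, since all classes but 6 are almost wholly of 1 stage. In bulk sums such as these, fewer nuclei of a type and less accessibility per nucleus cannot be told apart, and the matched lineages below address this as far as the deposited classes allow.

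**Figure D2:**
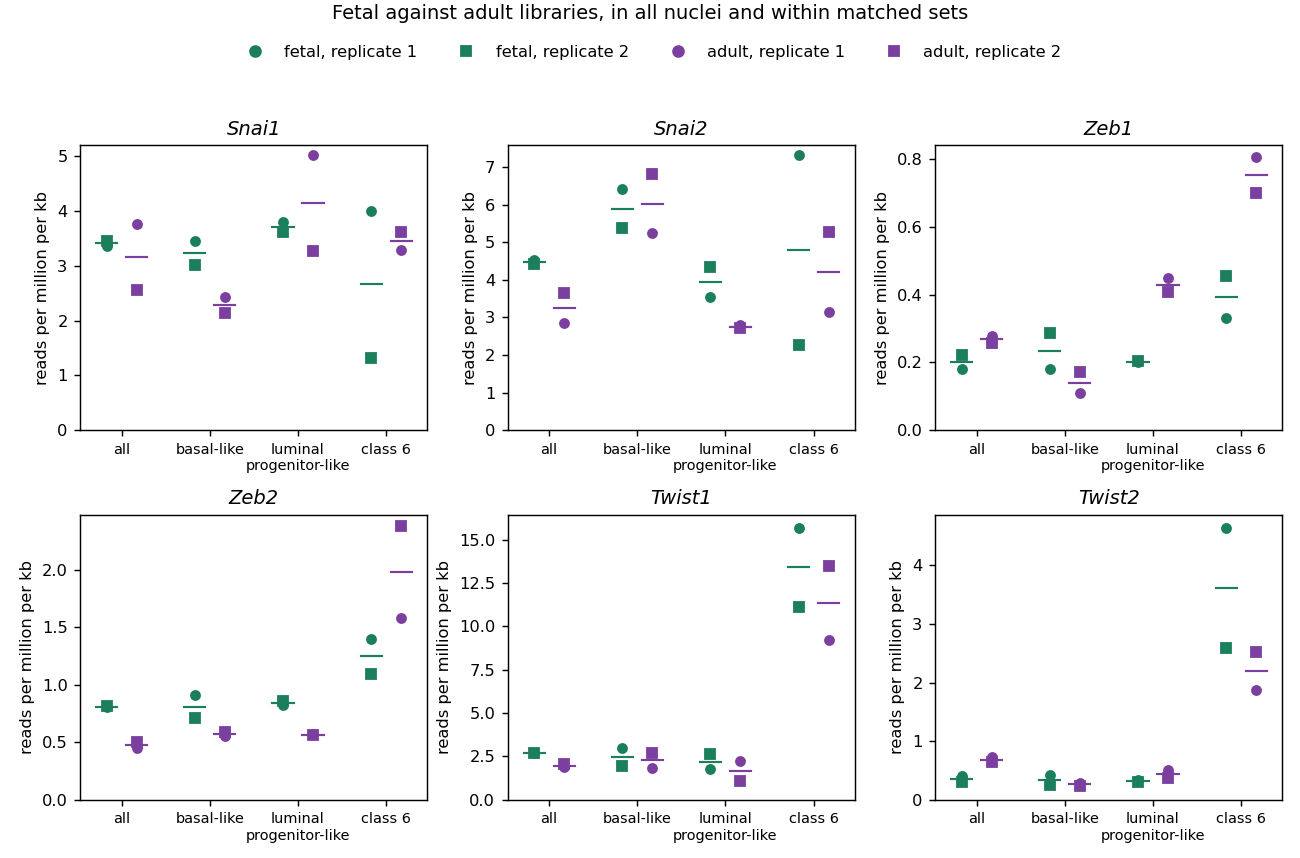
Accessibility of each gene in CPM per kb in the fetal and adult libraries, over all nuclei and over the matched class sums; each point is 1 library. Zeb1 in the progenitor-like sums is near 0.20 in both fetal libraries and above 0.40 in both adult ones, and the basal-like sums of the 2 stages lie the other way.

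In luminal progenitor-like nuclei (fetal class 9 against adult classes 3 and 7) Zeb1 was lower in the fetus and Zeb2 was higher. Zeb1 read 0.201 and 0.204 CPM per kb in the fetal and 0.448 and 0.408 in the adult sums, from 107 and 255 fetal and 396 and 395 adult reads. The fetal level was lower by 2.13-fold (log2 -1.09, SE 0.15, adjusted p = 3.2e-05), and the call held under the alternatives run, between -1.15 and -1.04. Zeb1 and Snai2 had no 5-prime window, since the tables used here give no strand for them. Zeb2 read 0.823 and 0.861 against 0.572 and 0.563 and was 1.47-fold higher in the fetus (log2 0.56, SE 0.13, adjusted p = 0.0044). The Zeb2 call was lost without fetal replicate 2 (adjusted p = 0.057) and over the 5-prime window (log2 1.37, adjusted p = 0.12). Over all genes, 15.7% of 17376 were called here (7.88% higher, 7.8% lower). Snai2 (0.53, adjusted p = 0.097), Twist1 (0.47, 0.40), Twist2 (-0.48, 0.21) and Snai1 (-0.17, 0.64) were not.

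In basal-like nuclei (fetal class 4 against adult classes 1 and 8) none of the 6 members was called, against 6.25% of 16476 genes (3.0% higher, 3.25% lower in the fetus). In simulated data this comparison recovered 34% of 2-fold changes and the progenitor-like one 80%, so a missing call here says less. Zeb1 lay the other way from the progenitor-like nuclei, with 0.181 and 0.286 CPM per kb in the fetal and 0.109 and 0.172 in the adult sums (log2 0.76, SE 0.29, adjusted p = 0.12). The adult sum pools class 1 (0.0934 and 0.0835) with class 8 (0.126 and 0.263), and fetal class 4 overlapped class 8, so the lack of overlap rests on class 1. Zeb2 read 0.911 and 0.709 against 0.552 and 0.590 (log2 0.49, SE 0.21, adjusted p = 0.16). Snai2, the basal member, read 6.41 and 5.37 against 5.25 and 6.80, a log2 difference of -0.07 (SE 0.26). Its fetal and adult values overlapped. Snai1 differed by 0.51 (SE 0.33), Twist2 by 0.31 (SE 0.43) and Twist1 by 0.01 (SE 0.44), and these rested on 18 to 81 reads a library. By edgeR, 2 of the 6, Zeb1 and Zeb2, had an unadjusted p under 0.05 (0.012 and 0.022), as did 3205 of the 16476 genes. Zeb1 passed without adult replicate 2 (adjusted p = 0.044) and without fetal replicate 1 (0.045).

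The stage difference of Zeb1 itself differed between the lineages. The log2 stage difference was higher by 1.84 in the basal-like than in the progenitor-like nuclei (SE 0.30, edgeR interaction term with the library as a block, since each library gives both sums, adjusted p = 1.8e-07). It was the only member called in this test, against 6.19% of 17068 genes (2.59% more positive and 3.6% more negative in basal-like nuclei). Under the alternatives run it ranged from 1.42 to 2.32 and stayed past the threshold. Snai1 (0.61), Snai2 (-0.60), Twist2 (0.72), Twist1 (-0.54) and Zeb2 (-0.10) had adjusted p of 0.37 or more.

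In stromal-like class 6 none of the 5 members tested was called, and 5 of 9813 genes in all (0.051%) were. Snai1 fell below the filter on reads. Twist2 differed by log2 0.72 (SE 0.37) and Zeb1 by -0.80 (SE 0.40), each from 9 to 76 reads a library, with adjusted p of 0.61 and 0.59. These sums hold 23 to 82 nuclei, and differences of this size were not detectable at this depth.

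Nearby regions show where in each locus the reads lay. The depositors listed 1 kb regions as distal or promoter, and those with a midpoint within 100 kb of a member were read out of a fit over all regions. Of 110 distal regions tested, 42 were called (38.2%), 13 higher and 29 lower in the fetal libraries, against 34.9% of all 122865 distal regions (15.9% higher, 19.0% lower). Zeb1 (7 of 12) and Twist2 (13 of 22) had the highest shares called, mostly lower in the fetus, and Zeb2 had 6 of 20, Snai1 12 of 44, Snai2 2 of 7 and Twist1 2 of 5. Of 17 promoter regions tested, 2 were higher and 1 lower, against 21.5% of 18570 (10.5% higher, 11.0% lower). Whether a region acts on the member or on a neighbouring gene was not tested.

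**Figure D3:**
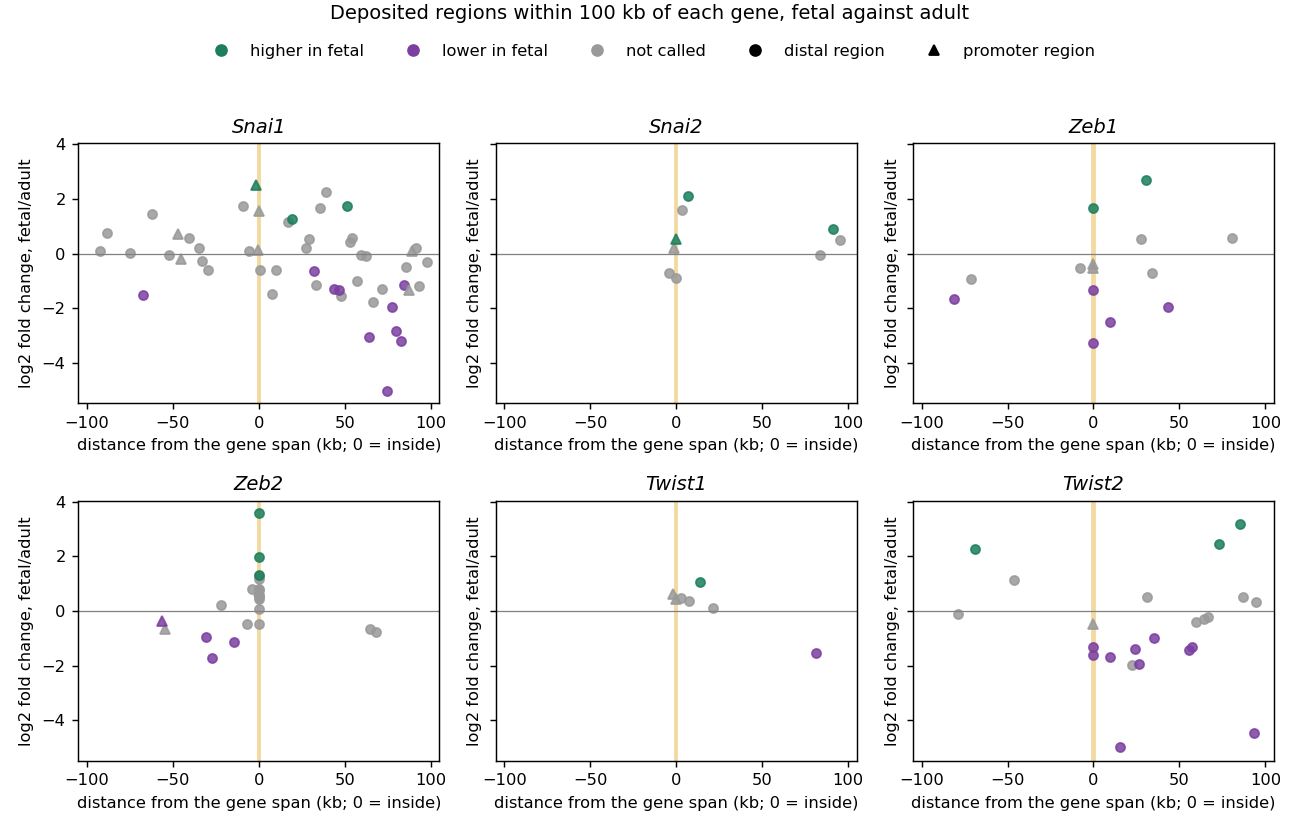
Log2 difference between fetal and adult libraries for each deposited region against its distance from the gene (kb, 0 inside the span), coloured by the call. Regions inside the Zeb2 span that were called are all higher in fetal libraries, while most called regions around Twist2 and Snai1 are lower.

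Of 4 distal regions inside Zeb1, 2 were called lower in the fetal libraries and 1 higher. Among the epithelial sums, the 2 lower ones were read mostly in adult progenitor-like nuclei. The higher one, chr18:5665817-5666816, had 10 and 32 fetal and 10 and 9 adult reads (log2 1.66, adjusted p = 0.046), and it was chosen for mention after its values were seen. Of the lower ones, the region with the larger change, chr18:5740016-5741015, had 2 and 14 fetal and 98 and 134 adult reads (log2 -3.29, SE 0.43, and -4.29 without fetal replicate 2). The one with more reads, chr18:5763739-5764738, had 12 and 42 fetal and 97 and 100 adult reads (log2 -1.33, SE 0.36). By lineage they read 15.6 and 18.5 CPM, and 17.3 and 16.7 CPM, in adult classes 3 and 7, and at most 4.66 CPM in any library of the other epithelial sums shown. In class 6 the former read 7.10 and 24.2 CPM in the adult libraries, while the latter had no read. The promoter region of Zeb1, chr18:5590914-5591913, did not pass (log2 -0.40). Beyond the gene, chr18:5805600-5806599 was higher in the fetus by log2 2.69 and chr18:5784491-5785490 lower by -2.51.

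Of 14 distal regions inside the Zeb2 span, 3 were called and all 3 were higher in fetal libraries. The most read, chr2:45019110-45020109, had 166 and 481 fetal and 180 and 194 adult reads (log2 1.34, SE 0.19). It read 33.1 and 38.5 CPM in fetal class 9, 19.8 and 12.8 in adult classes 1 and 8, 24.3 and 20.4 in adult classes 3 and 7, and 3.31 and 2.57 in adult classes 2 and 11. Class 6, where the Zeb2 span as a whole was highest, had no read there, which allows up to 2.00 CPM over its 4 sums. The regions chr2:45016923-45017922 (1.99) and chr2:45001313-45002312 (3.60) were also higher. The latter had 5 and 32 fetal and 0 and 4 adult reads (SE 1.03), and its difference was 2.76 without adult replicate 1 (adjusted p = 0.069) and 7.15 without adult replicate 2. The Zeb2 promoter region, chr2:45116068-45117067, was not called (log2 0.74, SE 0.41, adjusted p = 0.20). Outside the gene, chr2:44955849-44956848 was lower in the fetus (-1.73) and read 41.4 and 17.1 CPM in fetal and 14.2 and 20.8 in adult class 6.

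Snai2 had its most read distal region far from the gene. The region chr16:14800099-14801098, 91.2 kb outside the span and between genes, had 224 and 571 fetal and 273 and 374 adult reads (log2 0.90, SE 0.17). It was highest in fetal classes 12 (77.8 and 62.0 CPM) and 4 (57.7 and 47.6), then in adult classes 1 and 8 (47.7 and 45.3). Fetal class 9 had 29.6 and 31.2, adult classes 3 and 7 had 23.7 and 18.1, adult classes 2 and 11 had 13.1 and 10.5, and class 6 had none. In this region class 4 and the adult basal-like sum lay above the luminal sums of their stage. The called distal region with the largest change, chr16:14715611-14716610, lay 6.72 kb from the span. It had 3 and 46 fetal and 2 and 13 adult reads and was higher in the fetal libraries (log2 2.11, SE 0.75). Of 2 promoter regions at an end of Snai2, chr16:14705216-14706215 was higher in the fetal libraries as well, with 173 and 414 against 243 and 378 reads. Its log2 difference was 0.53 (SE 0.145, edgeR, adjusted p = 0.005), and it lost the call without adult replicate 1. The other, chr16:14704066-14705065, had 10 and 52 against 16 and 63 reads and was not called (log2 0.20, SE 0.44). It ranged from -0.54 to 1.23 with 1 library left out. In the authors' table of co-accessible pairs, made over all nuclei together, the called promoter region scored highest with chr16:14800099-14801098, at 0.349.

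**Figure D4:**
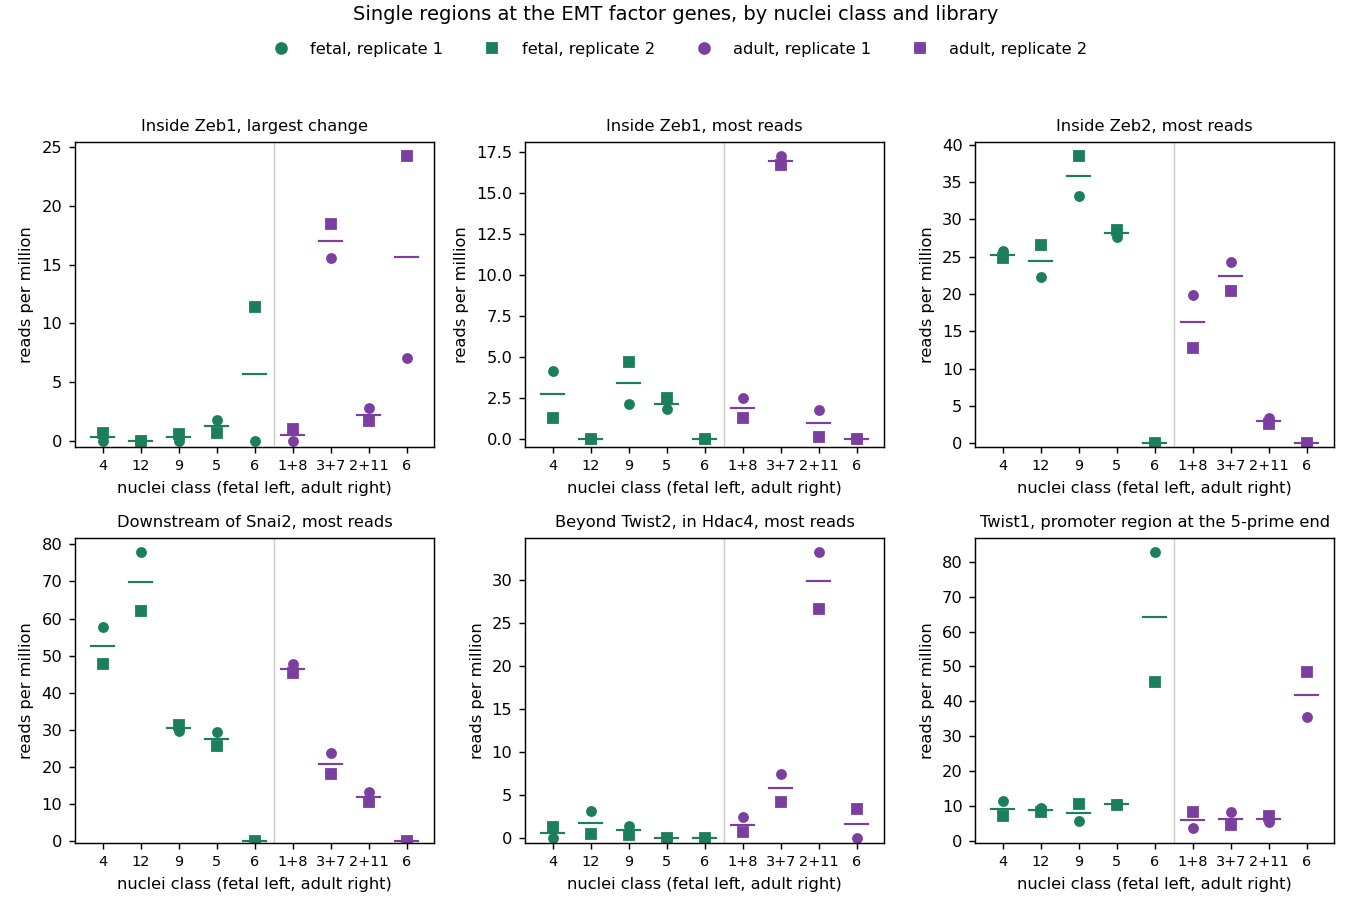
CPM in single deposited regions, by class sum and library; each point is 1 library. Among the epithelial sums the regions inside Zeb1 stand out in adult classes 3 and 7, although 1 adult class 6 library is higher in 1 of them (24.2 CPM); the Snai2 distal region is high in classes 4, 12 and 1 with 8, the Twist2 region inside Hdac4 in adult classes 2 and 11, and the Twist1 promoter in class 6.

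The promoter regions of Snai1, Twist1 and Twist2 were not called between stages. The Snai1 promoter region (chr2:167537489-167538488, log2 0.13), the Twist1 one (chr12:33957451-33958450, 0.43) and the Twist2 one (chr1:91800983-91801982, -0.47) did not pass. By class the Twist1 promoter region read 82.9 and 45.6 CPM in fetal and 35.5 and 48.4 in adult class 6, and 3.71 to 11.3 in the epithelial sums. The Twist2 promoter region read 27.6 and 37.1, and 16.6 and 20.8, in class 6, and at most 5.57 elsewhere. The windows printed above lie on these regions.

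Both distal regions inside the Twist2 span were called lower in the fetal libraries, and they were chosen for mention after their values were seen. The region chr1:91815818-91816817 had 13 and 44 fetal and 106 and 101 adult reads (log2 -1.33, SE 0.35). The region chr1:91822517-91823516 had 20 and 15 fetal and 71 and 113 adult reads (log2 -1.61, SE 0.42). The regions with the largest changes near Snai1 and Twist2 lay inside other genes or between genes. The region chr1:91940937-91941936, 93.4 kb from Twist2 and inside Hdac4, a histone deacetylase gene, had 6 and 9 fetal and 248 and 253 adult reads (log2 -4.45, SE 0.36). It read 33.3 and 26.6 CPM in adult classes 2 and 11, which held only 3 and 7 fetal nuclei, so stage and class composition cannot be told apart for it. The part of class composition in the other differences of this paragraph was not tested. Another region near Twist2, chr1:91863252-91864251, at 15.7 kb from the span and between genes, had 2 and 0 fetal and 48 and 60 adult reads. Its log2 difference of -4.97 ranged from -8.74 to -3.19 with 1 library left out. A further region inside Hdac4, chr1:91932946-91933945, went the other way, with 26 and 88 fetal and 7 and 11 adult reads (log2 3.19). Near Snai1, chr2:167625228-167626227 inside Ube2v1 (-3.21, and -8.73 without fetal replicate 2, the fetal library with reads there) and chr2:167606359-167607358 between genes (-3.05) were lower in the fetus too. The region chr2:167617100-167618099, 74.8 kb from Snai1 and inside Ube2v1, a ubiquitin-conjugating enzyme variant, had 0 and 6 fetal and 126 and 179 adult reads. Its log2 difference of -5.05 ranged from -9.90 to -4.55 with 1 library left out. A difference against a library without reads depends on the prior count. The distal region near Snai1 with most reads, chr2:167569853-167570852, lay 27.5 kb from the span and between genes. It had 88 and 297 fetal and 226 and 247 adult reads and was not called (log2 0.22, SE 0.21). For Twist1, chr12:33973456-33974455 was higher (1.08) and chr12:34040564-34041563 lower (-1.54), the latter nearest to Hdac9.

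The authors' co-accessibility scores otherwise linked the members weakly. The Twist1 promoter region had 1 of 21 pairs at 0.25 or above, a score of 0.341 with a distal region 118 kb away near Hdac9. The Snai2 promoter region had 7 of 47. No pair reached 0.25 for Zeb1, Zeb2, Snai1 or Twist2, with highest scores of 0.0811, 0.0881, 0.188 and 0.192. In the authors' gene accessibility scores, Snai2 was above 0 in 19.0% of 7846 columns and Zeb2 in 13.7%, against 6.79% for the median gene. Snai1 (4.74%), Zeb1 (3.87%) and Twist1 (3.50%) lay below that, and Twist2 had no row. The columns of that table carry no sample, so no comparison was made.

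The motif columns score how open the regions holding a factor's motif are in a nucleus, relative to all nuclei. The deposited table had columns for Snai1, Snai2, Zeb1, Twist1 and Twist2, and none for Zeb2. Such a score belongs to a DNA motif and not to 1 protein: over the 7846 nuclei the Snai2 score correlated with that of Zeb1 at r = 0.62 and with that of the E protein Tcf3 at r = 0.75. The Zeb1 and Snai2 scores were lowest in class 6, at -3.69 and -4.08 (adult) and -4.13 and -4.79 (fetal) for Zeb1, and at -3.22 and -3.57 and -3.48 and -4.18 for Snai2. They were negative in basal-like classes (-0.55 and -0.59 for Zeb1 and -1.19 and -1.02 for Snai2 in class 1) and highest in mature luminal-like class 2 (0.67 and 0.81, and 0.73 and 0.74) and class 10. The Snai2 motif score was thus low in the basal-like classes in which the Snai2 gene was most accessible. The Twist1 score lay between -0.29 and 0.22 in every class and library.

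Fetal libraries had lower Zeb1, Snai2 and Twist2 motif scores, over all nuclei with class 6 among them (these tests were not run without it). Mature luminal-like class 2, where the Zeb1 and Snai2 scores were among the highest, made up 28.8% of adult and 0.12% of fetal nuclei. Stage and class composition cannot be told apart in these whole-library scores, and differences within lineages are given below. Zeb1 scored -0.22 and -0.38 before birth and 0.19 and 0.10 in adults, a difference of -0.45 (SE 0.07, limma, adjusted p = 0.0026). Snai2 differed by -0.32 (adjusted p = 0.021) and Twist2 by -0.25 (adjusted p = 0.0052), while Snai1 (0.05) and Twist1 (0.07) missed the threshold. These 3 of 5 stand against 67.9% of the 427 motif columns called (32.3% higher, 35.6% lower). The Snai2 call was lost without adult replicate 1 or without fetal replicate 2.

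Within lineages only the Snai1 score passed. In basal-like nuclei it was -0.02 and -0.17 in the fetal and -0.60 and -0.69 in the adult sums (difference 0.54, SE 0.08, adjusted p = 1.7e-10), with 50.4% of motif columns called (19.0% higher, 31.4% lower). In progenitor-like nuclei it was 0.13 and 0.20 against -0.04 and -0.12 (difference 0.25, SE 0.06, adjusted p = 0.0079), with 64.2% called (29.0% higher, 35.1% lower), and this call was lost without either adult replicate (adjusted p = 0.057 and 0.093). The Zeb1 score did not differ past the threshold in progenitor-like nuclei (-0.04, adjusted p = 0.61), where its gene was 2.13-fold lower in the fetus. In basal-like nuclei the Zeb1 score differed by -0.11. The Snai2 score differed by -0.007 (basal-like) and 0.017 (progenitor-like), and the Twist2 score by -0.012 and -0.025, none of them called. Over the 7846 nuclei the Snai1 score correlated with those of Snai2, Zeb1 and Tcf3 at only r = 0.22, 0.20 and 0.21. The Snai1 calls thus do not stand for the E-box scores as a group.

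**Figure D5:**
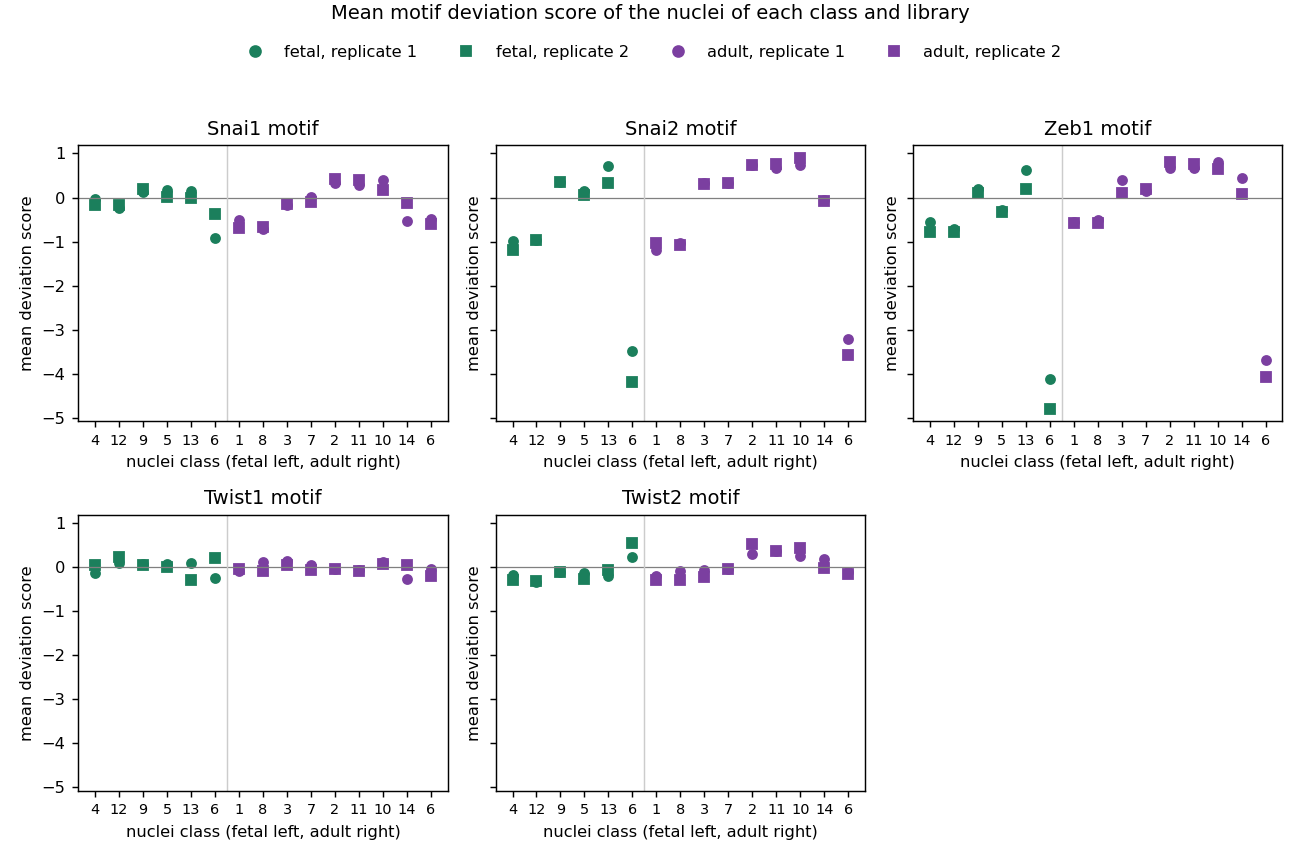
Mean deposited motif deviation score (no unit, 0 is the average nucleus) by class, each point 1 library, for the 5 member motifs. The Zeb1 and Snai2 scores fall below -3 in class 6 and are near -1 to -0.5 in basal-like classes, while the Twist1 score stays near 0.

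The pathway around the members was counted from 4 lists, of which Acta2 and Cdh3 are also basal markers and 4 mesenchymal genes (Col1a1, Col1a2, Col3a1 and Fbn1) are also stromal markers; Cldn3 and Cldn4 are also pan-luminal markers. Beside the counts below, 11.0% of all genes were called higher and 11.4% lower in whole fetal libraries. Of 17 mesenchymal targets, 3 were higher and none lower in the fetal libraries: Fn1 (fibronectin, log2 1.34), Vim (vimentin, 0.75) and Col5a1 (0.45). Of 18 epithelial targets and guardians, 4 were higher and 2 lower, among them Cdh3 (P-cadherin, 0.73), Pard3 (a polarity scaffold, 0.71) and Tjp1 (ZO-1, -0.54). Of 16 EMT co-factors, 6 were higher and 1 lower, led by the mesoderm factors Foxc2 (1.11) and Gsc (0.76). Of 20 upstream signals, 5 were higher and 7 lower: Bmp7 (0.96) was higher, while Tgfb1 (-0.78) and its mediator Smad3 (-0.68) were lower. List medians were 0.22, 0.03, 0.29 and 0.08 in that order, against 0.00 for all genes.

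In progenitor-like nuclei 5 mesenchymal targets were higher in the fetus and 1 lower (7.88% and 7.8% of all genes), with Fn1 at log2 2.10 (2.81 without adult replicate 2), Sparc, a matrix protein, at 1.03 and Postn (periostin) at -1.35. In basal-like nuclei 1 was higher and 4 were lower (3.0% and 3.25% of all genes), Fn1 at 1.19 against Acta2 (smooth muscle actin, -0.95), Fbn1 (-0.87), Sparc (-0.81) and Cdh2 (-0.76). The difference between the lineages was itself called for 5 of the 17, all more negative in basal-like nuclei, led by Sparc (-1.83), against 3.6% of all genes more negative. The list median was -0.80 against -0.01 for all genes. In the same test 5 of the 20 signals were more negative and none more positive (median 0.02), epithelial targets divided 3 more positive and 2 more negative of 18 (0.11), and 2 of 16 co-factors were more positive (0.02). Epithelial targets divided 3 higher and 1 lower in basal-like nuclei, where Epcam (1.27) and Cldn4 (1.21) were higher, and 3 higher and 2 lower in progenitor-like ones. Signals divided 0 and 2 in basal-like and 5 and 7 in progenitor-like nuclei, the latter led by Bmp7 (1.87) and Fgfr2 (1.23). Co-factors divided 2 and 1, and 3 and 1. In class 6 no gene of the lists was called by edgeR.

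Several of these calls ended under alternatives. Over the 5-prime window they ended in basal-like nuclei for Sparc (-0.053), Fbn1 (-0.45), Acta2 (-0.69) and Epcam (0.71), in progenitor-like nuclei for Postn (-0.96) and Fgfr2 (0.34), in whole libraries for Pard3 (0.23) and Smad3 (-0.26), and for Sparc in the test between lineages (-2.47, adjusted p = 0.073). With 1 library left out, the basal-like calls of Sparc and Cldn4 were lost in several cases each, those of Acta2 and Fbn1 without fetal replicate 1 (adjusted p = 0.074 and 0.12) and that of Fn1 without adult replicate 2 (0.10). In whole libraries Col5a1 lost its call without either fetal replicate (0.063 and 0.092) and Gsc without fetal replicate 1 (0.058).

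Between classes, in adult basal-like over progenitor-like nuclei 12 of 17 mesenchymal targets were higher and none lower (median log2 ratio 0.67), and 10 of 18 epithelial ones were lower and 3 higher (median -0.69), against a median of -0.12 and shares of 12.3% higher and 18.9% lower for all genes. Co-factors (3 higher, 2 lower of 16, median -0.06) and signals (5 and 3 of 20, median 0.04) were divided. Acta2 was higher by 2.48, Cldn4 lower by -1.81 and Epcam by -1.63. In fetal class 4 over class 9, 4 mesenchymal targets were higher and 11 epithelial ones lower (7.35% of all genes were higher and 15.0% lower), Cdh1 by -0.85 and Crb3 by -1.10. In class 6, 16 of 18 epithelial targets were lower and none higher in each stage, Cdh1 by -3.37 (fetal) and -3.52 (adult), while 12 (fetal) and 14 (adult) of 17 mesenchymal ones were higher. The shares over all genes there were 15.6% higher and 27.6% lower (fetal) and 17.5% and 25.7% (adult).

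The miR-200 genes lie in 2 clusters, and their mature strands fall into 2 groups by seed (bases 2 to 8, in capitals), given with RefSeq positions in GRCm38.p6. They are shown because the seed is what pairs with Zeb1 and Zeb2 messages, and these loci were added after seeing the data.
mmu-miR-200b-3p: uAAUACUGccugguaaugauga
mmu-miR-200c-3p: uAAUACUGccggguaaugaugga
mmu-miR-429-3p: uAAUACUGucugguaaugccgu
mmu-miR-200a-3p: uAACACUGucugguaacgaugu
mmu-miR-141-3p: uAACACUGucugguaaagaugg
The former 3 share the seed AAUACUG and the latter 2 share AACACUG. Mir200b, Mir200a and Mir429 lie on the minus strand of chromosome 4 (mature miR-200b at chr4:156055685-156055706), and Mir200c and Mir141 on the minus strand of chromosome 6 (mature miR-200c at chr6:124718324-124718346). Near the former cluster a promoter region, chr4:156059261-156060260, was higher in fetal libraries (log2 0.46, adjusted p = 0.003), and so was a distal region, chr4:156064202-156065201 (log2 1.46). Over the gene plus 2 kb, Mir200b read 6.47 and 6.90 CPM in fetal and 6.18 and 6.16 in adult libraries. In the basal-like sums it read 2.06 and 4.83 against 9.29 and 8.76 CPM, from 2 to 35 reads. In the progenitor-like sums it read 7.76 and 8.26 against 6.39 and 5.83 CPM. Mir200a and Mir429 were lower in the fetal basal-like sums as well, but their windows overlap that of Mir200b and share reads with it. These levels were not tested. The region on Mir200c, chr6:124718308-124719307, did not differ past the threshold (log2 0.01, SE 0.18). In class 6 these regions read lower than in the epithelial sums. The chr4 promoter region had 0 and 0 (fetal) and 4.73 and 6.92 CPM (adult), against 32.8 to 68.9 CPM in the epithelial sums. The Mir200c region read 0, 0, 0 and 3.46 CPM there, against 14.8 to 33.1 CPM. A count of 0 in class 6 allows up to 20.7 and 8.55 CPM in the fetal and 7.10 and 5.19 in the adult libraries, so that of fetal replicate 1 does not set Mir200c below the epithelial range.

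Over the 30 class-by-library sums, the genes most like each member were described by the correlation of log2(CPM + 2), with no test, since sums of a library share its depth and class 6 weighs on the stromal patterns. Twist2 was most like Lvrn (r = 0.916), Il1r1 and Sntb2. Zeb2 was most like Fndc1 (0.862), Tbx15 and Mthfd1l. Snai2 was most like Cfap97d2 (0.809), Ndp and M1ap, Zeb1 was most like Rftn1 (0.808), Gab2 and Mcc, and Snai1 was most like Kmt2e (0.791). Among the members the highest correlation was that of Zeb2 with Twist1 (0.692), and the paralogs Snai1 and Snai2 (0.187) and Zeb1 and Zeb2 (0.532) were lower.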

How the data were processed

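The study measured open chromatin by single-nucleus ATAC-seq in 4 libraries. The deposited read lists (positions with a nucleus barcode), region lists and a table of classes and motif deviation scores per nucleus were used, with the authors' co-accessibility and gene accessibility scores as descriptions. Bowtie2, MACS2, bedtools and the build mm10 are named in the submitters' processing notes, and their versions and settings are not given in the sources used here. No shift of reads for the transposase was applied here. From the deposited lists, a count of reads was made here for each gene span plus 2 kb and for each 1 kb region, summed over the nuclei of a class and library. Coordinates and promoters came from RefSeq tables of GRCm38.p6, the assembly of mm10.

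Counts were tested with edgeR 4.0.16 (quasi-likelihood test, TMM scaling, mean of at least 10 reads) and motif scores, per-library means of the authors' values, with limma 3.58.1 in R 4.3.3. P-values were adjusted by Benjamini-Hochberg over all features, with a threshold of 0.05. Alternatives covered DESeq2 1.42.0, scaling, filters, windows, deep nuclei, each library left out and the replicate number as a block. Fits were tested on simulated data. Of simulated 2-fold changes in genes, 87% were recovered over whole libraries, 80% in progenitor-like nuclei, 34% in basal-like nuclei and 1% in class 6. For distal regions the share recovered was 3%. With 2 libraries a group the p-values measure only the spread between these libraries, and numbers of reads limit precision. Both edgeR and limma share this spread over all features, so a very small p-value does not rest on a feature's own spread alone. In basal-like nuclei the SE was 0.077 for each of the 5 member motif scores. Intervals and floors cover counting error only. Replicate numbers do not mark shared animals and were not treated as pairs.

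The members and lists were chosen with earlier results of these data known. The regions named are the promoter regions at a gene's end, the distal region with most reads and up to 3 called distal regions with the largest change. Genes named as alike are from the 3 of highest correlation (those for Twist1 are not reported here), and list examples are those of largest change, apart from some given for their role after their values were seen. The miR-200 loci, the promoter search and the fits without class 6 were added after seeing the data.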

Additional observations from a re-analysis of the deposited data

Results flagged for a closer look

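The effect of stage on Zeb1 accessibility differed between the lineages, by a test of the difference itself. Fetal minus adult, the log2 difference was higher by 1.84 in basal-like nuclei (class 4 against classes 1 and 8) than in luminal progenitor-like nuclei (class 9 against classes 3 and 7). Within the lineages it was 0.76 and -1.09, and the former did not pass alone. Both fetal basal-like sums lay above both adult ones, although fetal class 4 overlapped adult class 8 and was clear of class 1 only, and both fetal progenitor-like sums lay below both adult ones.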

How the results depend on the processing

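The number of genes called between stages over whole libraries was 4211, and it was 2626 over 1 kb on either side of the 5-prime end, 6582 with the replicate block and 1813 to 4463 with 1 library left out. In basal-like nuclei the 1030 calls became 53 over that window, 322 by DESeq2, 624 over nuclei with at least 4000 reads and 547 to 863 with 1 library left out. In progenitor-like nuclei the 2725 calls became 993, 1468 by DESeq2 and 1621 to 2477. The interaction had 1057 calls, and 92 over that window, 276 by DESeq2, 529 without the replicate block (here the library, which gives both sums) and 418 to 685 with 1 library left out. In class 6 the 5 calls became 19 by DESeq2, 13 without flanks, 24 at a mean of 50 reads, 34 without a filter and 6 to 184 with 1 library left out. There edgeR called 0 over that window, over deep nuclei, with the replicate block and with total reads scaling, where 179, 708, 702 and 886 genes had an unadjusted p under 0.05. Distal regions went from 42924 to 24872 by DESeq2 and 15304 at a mean of 50 reads, and promoter regions from 3988 to 2622 by DESeq2 and 2560 to 3068 with 1 library left out. Motif calls in progenitor-like nuclei went from 274 to between 131 and 272.

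Directions turned mostly for values that missed the threshold, and also for Pard3 and for Twist2 between adult classes, which had passed. Over the 5-prime window Snai1 in progenitor-like nuclei was 0.16, Twist2 in basal-like nuclei -0.62, and Pard3 -0.17. Twist2 between adult classes turned to 0.85 and 0.76. Snai2 in class 6 was -0.053 without a filter and -0.012 with total reads scaling. Twist1 in basal-like nuclei was -0.019 without a filter and -0.030 over deep nuclei. The Snai2 motif was 0.0029 (median) and 0.049 (deep nuclei) in basal-like and -0.0010 (median) in progenitor-like nuclei, and the Twist1 motif 0.064 in deep basal-like ones. With 1 library left out, Snai1 ranged from -0.12 to 0.38 in whole libraries and -0.44 to 0.14 in progenitor-like nuclei. Snai2 ranged from -0.25 to 0.19 in basal-like nuclei and -0.83 to 0.83 in class 6. Twist1 ranged from -0.24 to 0.43 (basal-like), -0.017 to 0.60 (class 6) and -1.30 to 0.34 (interaction). Twist2 in basal-like nuclei ranged from -0.018 to 0.73 and the Zeb2 interaction from -0.28 to 0.15. Motif scores in basal-like nuclei ranged from -0.107 to 0.093 (Snai2), -0.105 to 0.076 (Twist1), -0.080 to 0.057 (Twist2) and -0.222 to 0.0063 (Zeb1). In progenitor-like nuclei they ranged from -0.0025 to 0.076 (Twist1), -0.063 to 0.014 (Twist2) and -0.083 to 0.010 (Zeb1). The region at chr16 14704066 ranged from -0.54 to 1.23, that at chr2 167537489 from -0.14 to 0.43 and that at chr2 167569853 from -0.021 to 0.39. The cause of these changes was not tested.

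The replicate block also gave calls to Snai2 (adjusted p = 0.0057) and Zeb1 (0.0032) in whole libraries by edgeR. Same-numbered libraries deviated together with r = 0.285 over genes there, and the design does not pair them. Over all alternatives for the members' gene spans, 293 values kept direction and side of the threshold, 19 turned, 9 gained a call (Snai2 and Zeb1) and 4 lost one (Zeb2 and Twist2). For the called genes of the 4 lists that were followed, 564 values kept direction and side, 110 lost a call and 1 turned.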
